A study of Homo sapiens with 8 samples.

Results

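The regions described here are p63 binding regions at 5 loci that hold genes of protease inhibitors, extracellular proteases and the urokinase receptor, in the human squamous cell carcinoma lines CAL27 and SCC13. A region was taken if its midpoint lay inside one of 5 windows on hg19: the SERPINB cluster at chr18:61000000-61700000, the KLK cluster at chr19:51300000-51600000, the MMP cluster at chr11:102380000-102880000, PLAU at chr10:75600000-75750000 and PLAUR at chr19:44100000-44230000. The windows were set for 10 genes: SERPINB5, SERPINB3, SERPINB13, SERPINB2, KLK5, KLK7, MMP1, MMP10, PLAU and PLAUR. They held 29 of the 13829 regions listed for CAL27 and 8 of the 5886 listed for SCC13. All 8 SCC13 regions were among the 29 of CAL27, with the same start and end. Over the whole lists, 4448 regions of each list overlapped a region of the other, and the widest region was 3456 bp in both. The share with the same bounds over the whole lists is not given here, so same bounds cannot be called particular to these loci. How the lists came to hold the same bounds is not stated in the sources used here. The bounds and widths of shared regions may therefore not be separate measurements in each line.

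Binding was measured by chromatin immunoprecipitation and sequencing with an antibody to p63, the product of TP63. The 8 samples formed 4 groups of 2, which were p63 immunoprecipitation in CAL27, samples titled none in CAL27, p63 immunoprecipitation in SCC13 and samples titled none in SCC13. All were labelled wild type and untreated. CAL27, established from a tongue carcinoma, was grown in DMEM/F12 with serum, and SCC13, established from a skin carcinoma, in keratinocyte serum-free medium with pituitary extract, EGF and calcium chloride, so line and medium cannot be told apart. Each line had 1 list of regions for both of its p63 replicates, with no score or height. No spread between replicates could be computed, the depth is unknown, and values are given without a test. Absence from a list does not show that p63 did not bind.

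p63 is a transcription factor of the p53 family that keeps basal keratinocytes in their lineage and remains active in most squamous carcinomas. It binds a pair of short half-sites, each built around a CNNG core, often at enhancers far from the gene they act on. Clade B serpins are mostly intracellular inhibitors of serine and cysteine proteases. Kallikreins of the skin take apart the junctions between dead surface cells, matrix metalloproteinases cut collagen and other matrix proteins, and urokinase starts the cleavage of plasminogen at the cell surface.

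In the RefSeq table of GRCh38.p14 the genes of the SERPINB cluster stand in the order SERPINB5, SERPINB12, SERPINB13, SERPINB4, SERPINB3, SERPINB11, SERPINB7, SERPINB2, SERPINB10 and SERPINB8. The regions are in hg19, and gene models of hg19 were not used here, so each region is given by its place in its window and is not assigned to a gene, exon or intron. Beside the 10 genes, a chosen list of 26 further genes of the same families was looked up in that table, 6 serpins, 13 kallikreins and 7 metalloproteinases. It is not a count of all genes of these families.

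Reference promoter sequences are shown for some genes as a description only. They are the 250 bases before the start of the gene in RefSeq (GRCh38.p14), read 5′ to 3′ on the strand of the gene, and whether a listed region covers them was not determined. SERPINB5, on the plus strand of chromosome 18, encodes maspin, a serpin of epithelia that does not inhibit proteases in the classical way. SERPINB2, also on the plus strand of chromosome 18, encodes plasminogen activator inhibitor type 2. Their promoters are shown because, of the 12 promoters found in the table for these genes, they held the most copies of CATG, a word at the centre of many p53-family half-sites. SERPINB2 had 4 and SERPINB5 had 3, in capitals here. How many promoters of the whole table hold as many copies was not counted, so these numbers cannot be called unusual. These promoters differed in pairs of CNNG cores, and no relation between CATG and such pairs was computed over the 12. At the spacing counted below, the SERPINB2 promoter held 0 such pairs and the SERPINB5 promoter held 4.

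SERPINB2: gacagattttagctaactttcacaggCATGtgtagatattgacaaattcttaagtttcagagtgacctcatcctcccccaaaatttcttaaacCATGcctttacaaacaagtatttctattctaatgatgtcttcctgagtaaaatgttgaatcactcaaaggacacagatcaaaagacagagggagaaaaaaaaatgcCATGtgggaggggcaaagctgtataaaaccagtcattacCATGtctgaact
SERPINB5: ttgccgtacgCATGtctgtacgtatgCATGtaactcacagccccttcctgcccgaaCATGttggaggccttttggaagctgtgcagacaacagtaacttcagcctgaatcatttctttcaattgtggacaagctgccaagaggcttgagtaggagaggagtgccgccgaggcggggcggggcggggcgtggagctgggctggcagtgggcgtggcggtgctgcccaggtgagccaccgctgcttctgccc

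SERPINB3 and SERPINB4, on the minus strand of chromosome 18, encode squamous cell carcinoma antigens, inhibitors of cysteine and serine proteases. Their promoters are shown side by side because short reads from such copies are hard to place. They were identical at 247 of 250 bases (98.8%), and the 3 that differ are in capitals. How reads that match both copies were handled is not given in the sources used here, so regions near either gene are uncertain.

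SERPINB3: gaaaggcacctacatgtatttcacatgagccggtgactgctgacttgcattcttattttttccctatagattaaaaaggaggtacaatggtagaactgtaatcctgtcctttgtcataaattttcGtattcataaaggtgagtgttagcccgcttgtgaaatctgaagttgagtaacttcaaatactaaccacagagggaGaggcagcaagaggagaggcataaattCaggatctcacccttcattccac
SERPINB4: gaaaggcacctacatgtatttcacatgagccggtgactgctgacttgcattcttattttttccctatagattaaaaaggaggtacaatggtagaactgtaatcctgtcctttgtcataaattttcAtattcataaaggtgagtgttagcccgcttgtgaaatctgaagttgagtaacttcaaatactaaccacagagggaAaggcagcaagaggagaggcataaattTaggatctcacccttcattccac

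Promoters of 9 of the 10 genes were matched in the table by symbol, 12 sequences in all. A pair of CNNG cores with 6 bases between them was found in 9 of these 12 promoters, of 7 genes. The same letters were in 68.6% of all 35116 promoters in the table, so the pair is common in any promoter of this length. CATG was found in 8 of the 12 promoters, also of 7 genes, and in 47.6% of all promoters. Of the 26 further genes of the 3 families on the chosen list, 19 were matched with 29 promoters, of which 17 held the pair and 18 held CATG. Both patterns read the same on either strand, and CATG can be one core of a pair. With only A or T allowed between the C and the G of each core, a pattern chosen after the data were examined and held by 4.02% of all promoters, 1 of the 12 promoters had a match. It was 1 of 3 promoters of KLK7, on the minus strand of chromosome 19. Of the 29 promoters of the further genes, 1 had a match, that of MMP27. The 3 KLK7 sequences overlap in part, so some bases are counted more than once among the 12. The KLK7 match, in capitals below, lies before 1 of the 3 KLK7 starts and past the others.

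KLK7: tgccagccCAAGTCGGAACTTGgatcacat

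The protease inhibitor cluster on chromosome 18 held 11 CAL27 regions and 3 SCC13 regions, the highest counts of the 5 windows, of which it was the longest. This was 15.7 regions per Mb in CAL27 and 4.29 in SCC13, against 4.57 in CAL27 and 1.95 in SCC13 over the whole lists, with chromosomes counted up to their last listed region. Per Mb it was below the PLAU (20.0), MMP (18.0) and KLK (16.7) windows in CAL27, and below PLAU (13.3) in SCC13. Of all 700 kb tiles laid end to end along the chromosomes, 3.78% held at least 11 CAL27 regions and 19.7% held at least 3 SCC13 regions. Many more tiles thus reached the SCC13 count than the CAL27 count. Fixed tiles include centromeres and other stretches where no region can be listed, and the windows were drawn around genes with results of these data known, so these shares only describe the lists.

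The 3 regions listed in both lines at the SERPINB cluster spanned 160 kb from the first midpoint to the last. The first, chr18:61094330-61095159, was 830 bp wide. The second, chr18:61143583-61144674, was the widest of the window at 1092 bp. It was as wide as or wider than 79.0% of the CAL27 list and 73.3% of the SCC13 list. The third, chr18:61253982-61254756, was 775 bp wide, below the median of both lists.

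A region listed in CAL27 only, chr18:61251986-61252801 (816 bp), came just before the third shared region, with 1180 bases between their edges. This pair was the closest in any of the 5 windows. The other named CAL27-only region, chr18:61220375-61221208, was 834 bp wide and the second widest of the cluster. The remaining 6 CAL27-only regions were 409 to 748 bp wide, with a median of 592 bp.

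The CAL27 regions were unevenly spread along the SERPINB window. The first 350 kb held 10 regions in CAL27 and 3 in SCC13, and the other 350 kb held 1 in CAL27 and 0 in SCC13. Which serpin genes lie in either stretch was not determined here. SERPINB13 encodes hurpin, an inhibitor of lysosomal cysteine proteases. The longest stretch between neighbouring CAL27 regions in any window, 218 kb, was also here. Outside the window the nearest CAL27 regions were 146 kb before its start and 942 kb after its end, and the nearest SCC13 regions were 390 kb before and 3892 kb after.

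**Figure D1:**
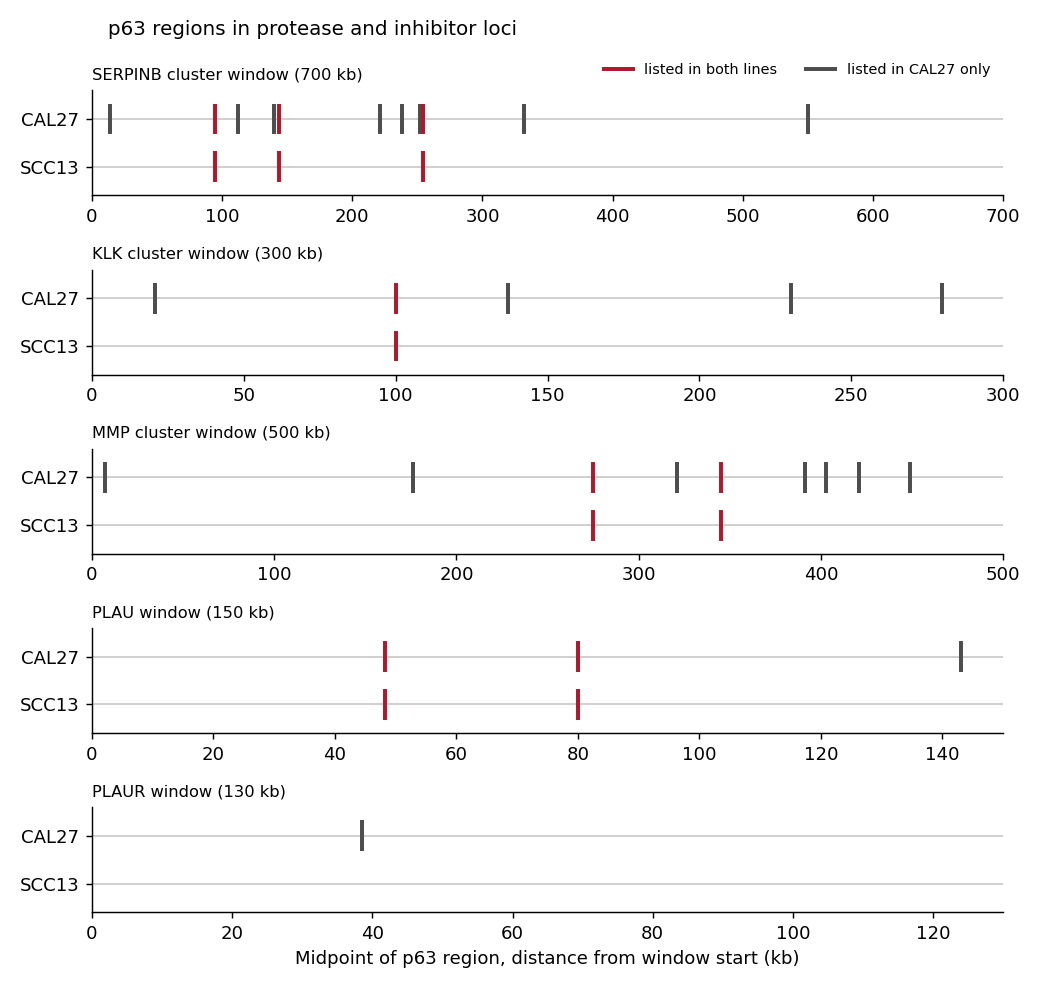
Positions of p63 regions in the 5 windows, as the distance of each midpoint from the start of the window (kb). CAL27 is the upper row and SCC13 the lower row of each panel; red marks are regions listed in both lines and grey marks regions listed in CAL27 only. Each of the 8 SCC13 marks has a CAL27 mark at the same place, and the SERPINB marks crowd into the first 350 kb of their window.

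The kallikrein cluster on chromosome 19 held 5 CAL27 regions and 1 SCC13 region. KLK5 and KLK7, a trypsin-like and a chymotrypsin-like protease of the outer epidermis, belong to a run of 15 kallikrein genes there. At least 5 CAL27 regions were found in 6.82% of 300 kb tiles, and at least 1 SCC13 region in 37.4%. The 1 region in both lines was chr19:51399534-51400396, 863 bp wide and close to the SCC13 median of 862 bp.

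The 4 CAL27-only regions of the kallikrein window differed widely in width. The widest of the window, at chr19:51579208-51580325, was 1118 bp and wider than the shared region. It was followed by chr19:51530037-51530936 at 900 bp and chr19:51436623-51437365 at 743 bp. The narrowest, chr19:51320507-51321062, was 556 bp wide. So the shared region was only the third widest of the 5 here. Neighbouring midpoints were 37.0 to 93.5 kb apart, with no close pair. The next CAL27 regions outside the window were 429 kb before it and 629 kb after it, and the next SCC13 regions 745 kb before and 1641 kb after.

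The metalloproteinase cluster on chromosome 11 held 9 CAL27 regions and 2 SCC13 regions. MMP1 encodes interstitial collagenase and MMP10 encodes stromelysin 2, both secreted. At least 9 CAL27 regions were found in 3.20% of 500 kb tiles, the lowest such share of the 5 windows, and at least 2 SCC13 regions in 25.0%. The window had 18.0 regions per Mb in CAL27 and 4.00 in SCC13.

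Both shared regions of the metalloproteinase cluster lay past the middle of its 500 kb window. Their midpoints were 275 and 345 kb from its start, 70.6 kb apart. One, chr11:102724562-102725784, was the widest of the window at 1223 bp and as wide as or wider than 85.8% of the CAL27 list. The other, chr11:102654183-102655023, was 841 bp wide.

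The 7 CAL27-only regions were all under 1000 bp wide. Between both shared regions lay chr11:102700345-102701163, 819 bp wide. Beyond them followed chr11:102770950-102771645 (696 bp), chr11:102782370-102783341 (972 bp), chr11:102800752-102801364 (613 bp) and chr11:102828620-102829177 (558 bp). Midpoints of these 4 were 11.6, 18.2 and 27.8 kb apart. The first 250 kb of the window held only chr11:102386721-102387466 (746 bp) and chr11:102555909-102556641 (733 bp), so 7 of the 9 CAL27 regions and both SCC13 regions lay in the other 250 kb. In the GRCh38.p14 table the family runs in the order MMP7, MMP20, MMP27, MMP8, MMP10, MMP1, MMP3, MMP12 and MMP13; which of them lie in either stretch was not determined here.

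The PLAU window on chromosome 10 held 3 CAL27 regions and 2 SCC13 regions, the smallest difference in count between the lines at a window with SCC13 regions. PLAU encodes urokinase, the serine protease that SERPINB2 inhibits and PLAUR binds. At least 3 CAL27 regions were found in 7.41% of 150 kb tiles and at least 2 SCC13 regions in 5.19%, the lowest SCC13 share of the windows. The regions covered 2.09% of the window in CAL27 and 1.81% in SCC13, more than in any other window in either line.

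The region chr10:75647263-75649206, listed in both lines, was the widest of all 5 windows at 1944 bp. With the same bounds in both lists, it ranked 202 of 13829 by width in CAL27 and 129 of 5886 in SCC13. Its neighbour chr10:75679630-75680393, also in both lists, was 764 bp wide and 31.8 kb away by midpoint. The CAL27-only region chr10:75742839-75743266 was 428 bp wide, with 3.76% of the CAL27 list as narrow or narrower. So width at PLAU ran from the top to the bottom of the list, and its narrowest region was the one missing from SCC13.

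The PLAUR window on chromosome 19 held 1 CAL27 region and 0 SCC13 regions. PLAUR encodes the urokinase receptor, a lipid-anchored protein of the cell surface. The CAL27 region, chr19:44138122-44138821, was 700 bp wide, and 35.6% of 130 kb tiles held at least 1 CAL27 region. In SCC13, 80.0% of tiles held none. This count depended on where the window ended: a region in both lists, chr19:44263152-44264142 (991 bp), lay 33.6 kb past its end, and a CAL27-only region, chr19:44080576-44081191 (616 bp), lay 19.1 kb before its start. With 100 kb added on both sides the window held 5 CAL27 regions and 1 SCC13 region.

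**Figure D2:**
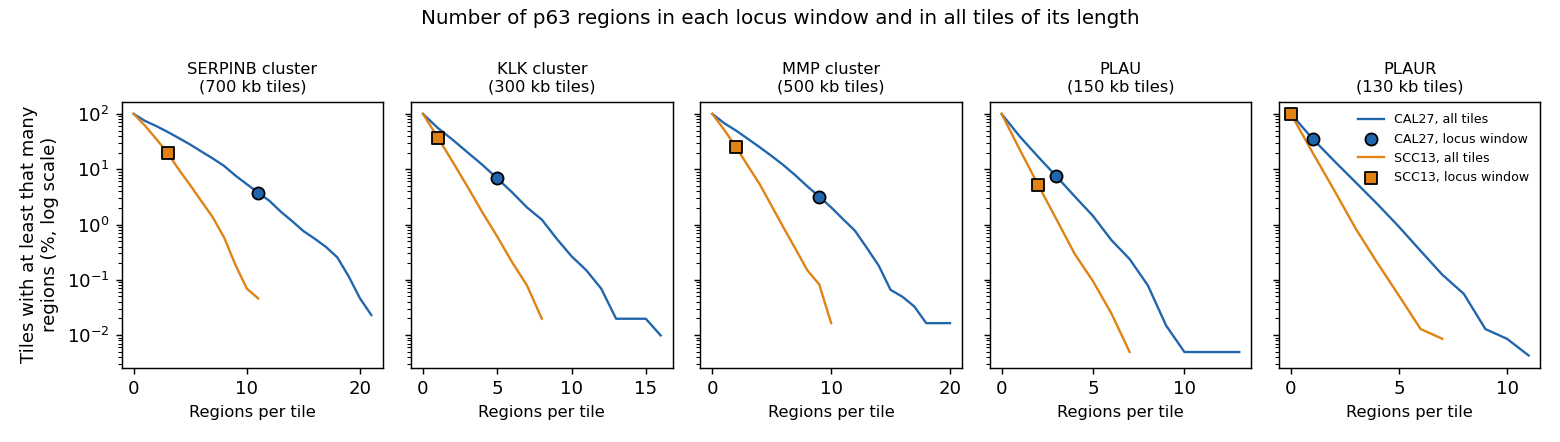
Percentage of tiles (log scale) that hold at least a given number of p63 regions, for tiles of the length of each window, with the window's own count as a marker, in CAL27 (blue, circles) and SCC13 (orange, squares). The CAL27 markers of the MMP and SERPINB windows sit at 3.20% and 3.78% of tiles, and the SCC13 markers of the KLK, MMP and SERPINB windows at 37.4%, 25.0% and 19.7%.

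Over the 5 loci, CAL27 had 3.62 times as many regions as SCC13, against 2.35 times over the whole lists. This ratio rests on the same 29 and 8 regions as the shares that follow, and no interval was computed for it. Of the 29 CAL27 regions, 8 were also listed in SCC13, or 27.6% (95% exact Clopper-Pearson interval 12.7 to 47.2), beside 32.2% of the whole CAL27 list. All 8 SCC13 regions were also listed in CAL27, or 100% (63.1 to 100), beside 75.6% of the whole SCC13 list. Both intervals include the share of the whole list, so neither share was distinguishable from it with this number of regions. The intervals cover counting error only, and neighbouring regions are not independent. No region at these loci was listed in SCC13 only, beside 1438 of the 5878 SCC13 regions elsewhere. This restates the 100% share and is not a separate result.

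The regions at these loci were of ordinary width. The median was 748 bp for the 29 in CAL27 and 852 bp for the 8 in SCC13, beside 791 bp for the whole CAL27 list and 862 bp for the whole SCC13 list. The SCC13 widths are those of the 8 shared regions, which have the same bounds in both lists. In CAL27, 12 of the 29 were wider than the list median. Regions in both lines had a median of 852 bp and ranged from 764 to 1944 bp, and CAL27-only regions had a median of 700 bp and ranged from 409 to 1118 bp. The ranges overlapped, and 15 of the 21 CAL27-only regions were narrower than all 8 shared ones. Over the whole CAL27 list the medians were 934 bp for shared and 723 bp for CAL27-only regions, so the difference at these loci had the direction of the whole list.

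**Figure D3:**
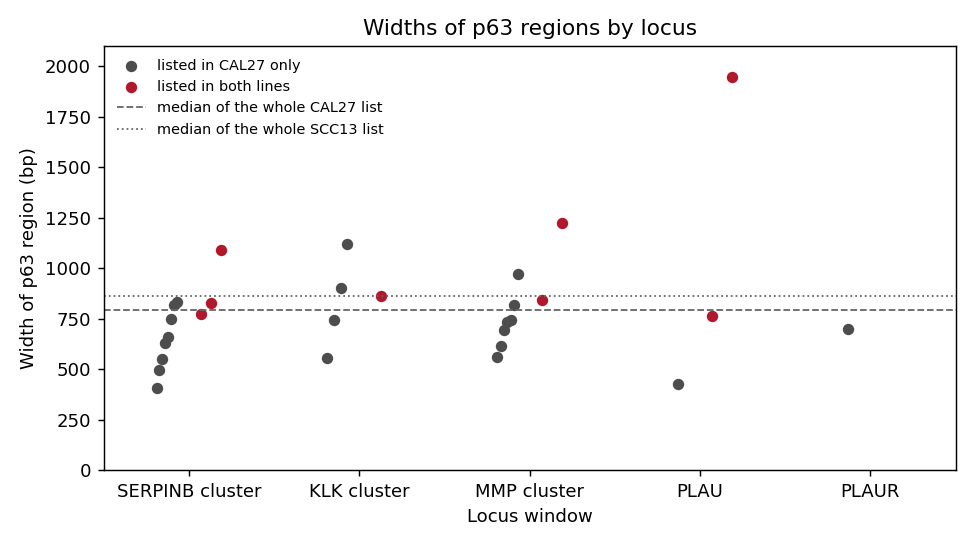
Width (bp) of each of the 29 p63 regions by locus window, with regions listed in CAL27 only in grey and regions listed in both lines in red; dashed and dotted lines are the medians of the whole CAL27 and SCC13 lists, 791 and 862 bp. The widest point is the shared PLAU region of 1944 bp, and no shared region is narrower than 764 bp.

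The distance of CAL27-only regions from shared ones varied widely. The median distance from the midpoint of a CAL27-only region to that of the nearest shared region was 75.9 kb at the 5 loci, with a range of 1.98 to 296 kb, beside 136 kb over the 9381 CAL27-only regions of the whole list. It was 25.6 kb in the SERPINB window, 75.9 kb in the MMP window and 105 kb in the KLK window. Windows dense in regions make such distances short, so this is a description of the loci and not a separate result. The nearest region of any kind in the same list was a median of 31.8 kb away at the loci and 36.5 kb over the whole list in CAL27, and 60.0 kb at the loci and 102 kb over the whole list in SCC13.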

How the data were processed

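Bowtie2, SAMtools 1.8, MACS2 and hg19 are named per the submitters' processing notes, which give neither their roles nor their order. Nothing in those notes or labels states how peaks were thresholded, how replicates were combined or what the samples titled none were for. For each line the authors deposited a single list with 3 columns, which are chromosome, start and end. Positions are printed counted from 1.

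A region belonged to a window by its midpoint, and was shared if it overlapped a region of the other list by at least 1 bp. All windows of the same length, laid end to end from the first base of each chromosome to its last listed region, served as background. Intervals are exact Clopper-Pearson at 95%. Regions were named by a fixed rule: all shared regions and, in a window with over 10 regions, the 3 widest and the closest pair, otherwise every region; a single region outside a window was named where it bears on a window's bounds. The windows, genes and lists were chosen with earlier results of these data known. RefSeq tables of GRCh38.p14 gave gene order and promoter sequences only. Python 3.11.15, numpy 2.4.6, pandas 2.3.3, scipy 1.17.1 and matplotlib 3.10.9 were used. On simulated data, 300 of 300 copied regions among 1000 were found as shared.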

Additional observations from a re-analysis of the deposited data

How the results depend on the processing

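No paired analysis was possible because each line has 1 list for both replicates; leaving out a replicate could not be done either. Totals of 29 CAL27 and 8 SCC13 regions became 12 and 4 with only regions as wide as the list median, and 18 and 5 without the SERPINB window. With windows narrowed by 10% on both sides, the KLK window held 3 CAL27 regions in place of 5. Leaving out single windows was added after the data were examined. The share of CAL27 regions also in SCC13, 27.6%, was 50.0% among regions as wide as the median and 23.1 to 30.8% under its other alternatives. Over the whole CAL27 list, 3055 of 4448 shared regions and 3840 of 9381 CAL27-only regions were wider than its median. Wide regions were thus more often shared there too, and the 50.0% is not particular to these loci. The share of SCC13 regions in CAL27 was 100% under every alternative run. As all 8 had the same bounds in both lists, only widening the windows could have changed this share. Its other alternatives could not move and do not show that it is robust. Shifting the tiles, so that each began in the middle of an earlier one, moved no share of tiles beyond its counting interval. Limiting the cores of the promoter pair took it from 7 genes to 1, as fewer letters can match. Of 112 alternative values, 17 moved past their limits, 6 of the 62 for totals, shares, widths, tiles and motifs and 11 of the 50 for counts of single windows, with limits of 1.5 times for counts and the 95% interval otherwise. Depth is unknown, so the longer CAL27 list cannot be assigned to the cells.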
